A study of Mus musculus with 6 samples.

Results

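The semaphorin ligands and their plexin and neuropilin receptors were followed through the open chromatin of the posterior second heart field (pSHF) and the atria of the mouse embryo. The family was taken as every protein-coding gene whose symbol starts with Sema and a digit or is Plxna1 to Plxnd1, together with Nrp1 and Nrp2. This gave 31 genes of 21627, namely 20 semaphorins, 9 plexins and 2 neuropilins. A peak was given to one of them when the gene body nearest to its summit belonged to the gene and lay within 100 kb. By this rule 169 of the 44018 pSHF peaks and 168 of the 49267 atrial peaks belonged to the family. Being nearest says where a peak lies; whether it acts on that gene was not measured.

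The study profiled chromatin by ATAC-seq, in which the transposase Tn5 cuts and tags accessible DNA. Per the labels, the groups were pSHF and atria (HT), each with 3 samples, and all were wild type (WT) CD1 embryos, an outbred strain, at embryonic day 10. Tissue from several embryos was combined and taken apart into cells with TrypLE before lysis, so each library is a mixture of the cell types present in the dissected piece. Each tissue is represented by a single list of peaks that carries no value per sample. The spread between replicates is therefore unknown, no difference below could be set against it, and no test between the tissues was possible.

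Semaphorins are guidance cues that were first known from axons and that also steer neural crest and endothelial cells. Class 3 members are secreted and mostly act through a neuropilin, which binds the ligand, joined to a class A plexin, which carries the signal into the cell; Sema3e is an exception that binds Plxnd1 directly. Classes 4, 5 and 6 span the membrane and class 7 is anchored to it by a lipid, and these bind plexins without a neuropilin. In the mouse heart the family is known for the entry of cardiac neural crest into the outflow tract, for vessel patterning, for the connection of the pulmonary veins and for innervation.

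For orientation, a peak was called restricted when no peak of the other list overlapped it by even 1 bp, and shared otherwise. A restricted peak was thus one the caller did not report in the other tissue, where the site may still be open below the calling threshold. The strength of a peak is the fold enrichment over local background from the authors' peak caller, and the pileup is the number of fragments it counted at the summit. The whole lists had a median fold enrichment of 4.85 in pSHF and 5.49 in atria, at a median pileup of 11 in pSHF and 12 in atria. The smallest pileup of any peak was 5 in both lists, so weak peaks rested on few fragments. Intervals given below are exact, cover counting error only and treat peaks as independent.

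Promoter sequences are shown for 6 members described in detail whose peaks over a window at the annotated start separated the tissues. A window runs from 250 bases before to 50 after the start, in RefSeq coordinates of GRCm38.p6, the mm10 build of the files. They were taken where a restricted peak lay over the window or where the shared peak over it differed by at least 1.5-fold. Fold enrichment is read at the summit of a peak, which can lie outside the window. This was so for Sema3d in atria, 300 bp after the start, Sema3c in pSHF, 277 bp before it, and Sema4f in pSHF, 89 bp after it. Sequences are 5′ to 3′ on the strand of the gene, and capitals mark matches to the searched motifs other than the E-box.
Sema3c promoter window, chr5:17574566-17574865, plus strand: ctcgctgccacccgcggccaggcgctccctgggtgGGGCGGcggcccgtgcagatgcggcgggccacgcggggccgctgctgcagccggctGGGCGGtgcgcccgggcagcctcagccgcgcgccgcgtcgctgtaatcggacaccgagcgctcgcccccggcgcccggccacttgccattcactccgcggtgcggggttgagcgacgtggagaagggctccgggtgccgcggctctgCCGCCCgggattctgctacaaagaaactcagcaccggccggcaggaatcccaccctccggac
Sema3d promoter window, chr5:12382916-12383215, plus strand: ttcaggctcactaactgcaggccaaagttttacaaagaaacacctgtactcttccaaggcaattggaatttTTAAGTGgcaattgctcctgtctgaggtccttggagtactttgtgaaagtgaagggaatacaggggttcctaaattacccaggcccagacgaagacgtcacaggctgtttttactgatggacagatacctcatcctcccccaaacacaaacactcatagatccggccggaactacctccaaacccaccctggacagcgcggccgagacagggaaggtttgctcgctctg
Sema4f promoter window, chr6:82939720-82940019, minus strand: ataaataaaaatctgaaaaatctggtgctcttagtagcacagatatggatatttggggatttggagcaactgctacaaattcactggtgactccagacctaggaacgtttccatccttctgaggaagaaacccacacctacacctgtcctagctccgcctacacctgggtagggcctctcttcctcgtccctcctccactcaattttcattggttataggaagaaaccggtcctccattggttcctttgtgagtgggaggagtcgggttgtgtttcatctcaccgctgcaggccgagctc
Plxnc1 promoter window, chr10:94944796-94945095, minus strand: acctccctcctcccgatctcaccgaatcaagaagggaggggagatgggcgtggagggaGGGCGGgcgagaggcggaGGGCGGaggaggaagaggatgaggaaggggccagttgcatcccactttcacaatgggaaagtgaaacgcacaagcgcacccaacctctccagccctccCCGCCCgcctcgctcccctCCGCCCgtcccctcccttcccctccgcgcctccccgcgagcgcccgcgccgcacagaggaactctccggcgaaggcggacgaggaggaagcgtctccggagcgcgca
Plxnd1 promoter window, chr6:115994956-115995255, minus strand: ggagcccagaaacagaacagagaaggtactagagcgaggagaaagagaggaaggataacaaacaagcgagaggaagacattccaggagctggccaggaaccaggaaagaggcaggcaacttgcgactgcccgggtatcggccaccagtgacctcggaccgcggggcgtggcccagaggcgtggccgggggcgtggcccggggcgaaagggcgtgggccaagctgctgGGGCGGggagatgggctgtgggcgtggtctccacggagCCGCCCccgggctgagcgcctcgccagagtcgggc
Nrp1 promoter window, chr8:128358823-128359122, plus strand: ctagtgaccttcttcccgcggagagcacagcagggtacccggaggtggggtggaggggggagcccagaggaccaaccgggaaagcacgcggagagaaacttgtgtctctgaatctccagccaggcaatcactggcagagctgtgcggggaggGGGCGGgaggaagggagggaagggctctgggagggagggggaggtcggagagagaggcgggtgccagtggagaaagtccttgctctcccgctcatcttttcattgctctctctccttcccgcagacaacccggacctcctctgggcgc

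The promoter of Sema4f, a transmembrane class 4 semaphorin, was the one member promoter that was at least 1.5-fold stronger in pSHF. Its peak had a fold enrichment of 10.9 at a pileup of 25 in pSHF, against 6.03 at a pileup of 10 in atria. The ratio of pileups was 2.50 (95% interval 1.16 to 5.83). Its sequence had 48.7% G+C and 7 CpG dinucleotides, and none of the capital-marked motifs.

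The promoters of Sema3c, Sema3d and Plxnd1 were stronger in atria. Sema3c, a secreted cue that draws cardiac neural crest to the mouse outflow tract, had 7.92 in pSHF and 12.96 in atria, and its window was the most GC-rich of the 6, at 75.7% G+C with 42 CpG. Sema3d, whose loss in mice misroutes the pulmonary veins, had 2 pSHF summits of 5.02 and 7.15 under a single atrial peak of 11.5, and its window had 49.7% G+C with 8 CpG. Plxnd1, the endothelial receptor of Sema3e, had 4.38 at a pileup of 20 in pSHF and 6.89 at a pileup of 35 in atria.

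The remaining printed windows carried a peak in 1 list only. Plxnc1, the receptor of Sema7a, had a pSHF-restricted peak of fold enrichment 4.44 and pileup 16 over its start. Nrp1, the neuropilin that binds Sema3a and a VEGF-A isoform, had an HT-restricted peak of 3.54 over its start, at a pileup of 17 against a local background of 4.08. Both tissues also shared a stronger Nrp1 peak 1298 bp before the gene by its pSHF summit, with 4.87 in pSHF and 7.07 in atria. The start of Nrp1 without a pSHF call thus lay beside a shared peak.

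Across all 26 members with a RefSeq window, 19 had a peak of both lists over at least 1 of their windows. Plxnc1 alone had a pSHF peak only, and Nrp1 and Sema7a had an atrial peak only. Sema7a, the lipid-anchored semaphorin, had 4.71 at its start in atria, while its single pSHF peak of 3.31 lay at 57940533 to 57940650 on chromosome 9, outside the window. Plxnb3, Sema3a, Sema4a and Sema4d had no peak over a window in either list. Plxna1, Plxna4, Sema3b, Sema3f and Sema6a had no window to search. The same count was not made over the windows of all genes, so these numbers have no background here.

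The motifs searched on both strands were GACCACCCA of the GLI proteins, AGATAA of the zinc-finger cardiac factors known by their GATA box, TGTTTAC of the forkhead proteins, AGGTGTGA of the T-box proteins, CACTTAA of NKX2-5, a MEF2 motif, CANNTG of the E-box and GGGCGG of the Sp and KLF proteins. No member window held the GLI, GATA, forkhead or MEF2 letters, which occurred in 0.253%, 11.2%, 3.65% and 0.110% of all 32851 RefSeq windows. The NKX2-5 letters, present in 2.41% of all windows, occurred once among the members, in Sema3d at 179 bases before the start. The T-box letters also occurred in 1 member window, against 1.28% of all windows. The GC-rich Sp/KLF letters occurred in 27 of 37 member windows, or 73.0%, and in 35.7% of all windows. The E-box letters occurred in 56.8% of member windows and 72.3% of all. No matches overlapped in the printed windows, and a match describes letters, not a bound factor.

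Taken over the 31 genes, the family had about as many pSHF-restricted as HT-restricted peaks. There were 79 pSHF-restricted peaks, 46.7% (39.0 to 54.6) of the family's pSHF peaks, where 31.8% of pSHF peaks at all protein-coding genes were restricted. There were 83 HT-restricted peaks, 49.4% (41.6 to 57.2), where 43.7% of atrial peaks at all genes were restricted. In bulk tissue, fewer cells of a type and less open chromatin per cell cannot be told apart. Of all restricted peaks, 48.8% (40.8 to 56.7) were in pSHF in the family and 39.3% over all genes.

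Both shares lay above those of all genes, though the atrial interval held the value of all genes. The members had few peaks within 1 kb of a gene end, 23.1% in pSHF and 20.2% in atria, against 37.9% and 31.2% over all genes in pSHF and atria, and gene-end peaks were mostly shared. Away from gene ends, 54.6% (45.7 to 63.4) of 130 pSHF peaks were restricted, against 44.3% for all genes. In atria, 56.7% (47.9 to 65.2) of 134 such peaks were restricted, near the 57.3% for all genes. Restricted peaks were weaker than shared ones, with medians of 4.31 and 4.90 in pSHF and of 4.87 and 5.48 in atria. Among peaks with a −log10 q of 5 or more, 10 pSHF peaks of the family were restricted, 16.7% against 10.2% over all genes, and 33 atrial peaks, 37.1% against 28.9%. At or above the list median fold enrichment the shares were 28.8% against 16.2% in pSHF and 39.4% against 25.1% in atria.

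By gene, 9 members had more pSHF-restricted peaks, 12 had more HT-restricted peaks and 10 had equal numbers. Over all 21627 genes, 15% had more pSHF-restricted and 29.3% had more HT-restricted peaks. These 9 and 12 genes were among 27 members with any restricted peak, where 29.5% of all such genes had more in pSHF and 57.9% had more in atria. Peak numbers followed gene size, with a rank correlation across the 31 genes between the length of sequence nearest to a gene and its peak number of 0.87 in pSHF and 0.78 in atria, which is a description over genes that share the same libraries. Plxnb3, a receptor of Sema5a, was the single member with no peak in either list.

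**Figure D1:**
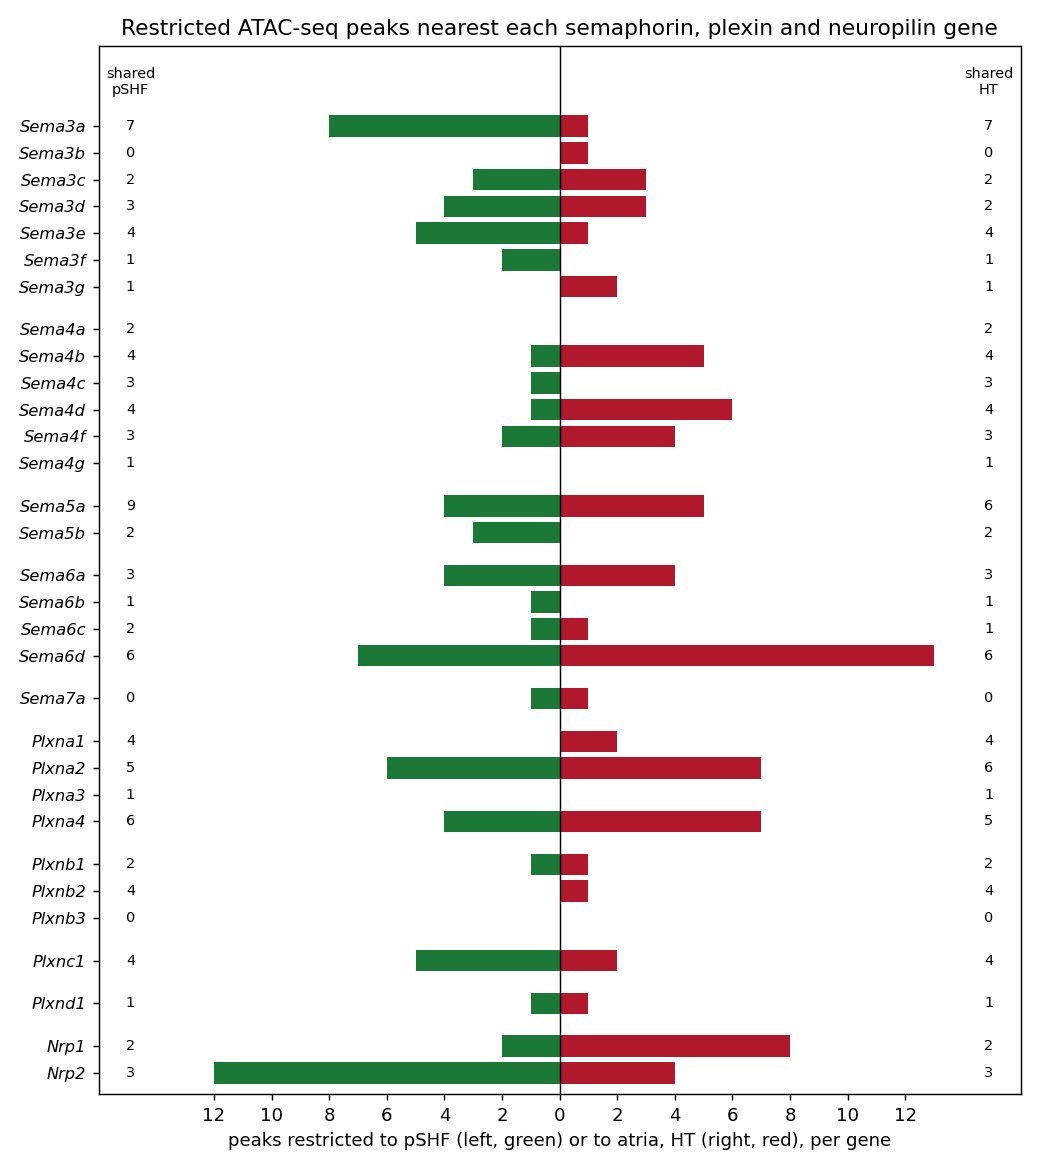
Number of restricted peaks (x axis) at each of the 31 members (y axis), grouped by class, with pSHF-restricted counts drawn to the left and HT-restricted counts to the right, and each list's number of shared peaks printed at its edge. Nrp2, with 12 in pSHF and 4 in atria, and Sema3a, with 8 in pSHF and 1 in atria, extend furthest to the left, and Sema6d, with 13 in atria, furthest to the right.

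The secreted class 3 ligands leaned to pSHF. Their 7 genes had 22 restricted peaks in pSHF and 11 in atria, so 66.7% (48.2 to 82.0) of the restricted peaks were in pSHF, against 39.3% over all genes. The 4 genes on chromosome 5, Sema3a, Sema3c, Sema3d and Sema3e, had 20 restricted peaks in pSHF and 8 in atria. Among these 4 the excess lay mainly at Sema3a, with 8 in pSHF and 1 in atria, and Sema3e, with 5 and 1. Sema3c had 3 in each list, and Sema3d had 4 in pSHF and 3 in atria. Without Sema3a the class had 14 in pSHF and 10 in atria. The counts depended on how strong peaks were chosen. At or above the list median fold enrichment the class had 8 in pSHF and 2 in atria. All genes had 3500 in pSHF and 5811 in atria there. With a −log10 q of 5 or more the class had 3 in pSHF and 3 in atria, and all genes had 1986 in pSHF and 8073 in atria.

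Sema3a, a repellent of axons that patterns the sympathetic nerves of the mouse heart, had 8 restricted peaks in pSHF and 1 in atria, over a gene body of chr5:13124822-13603485. Its strongest pSHF-restricted peak lay inside the gene at chr5:13527204-13527398, with 6.69 at a pileup of 12. The HT-restricted peak, at chr5:13229995-13230168, had 6.58 at a pileup of 11. Thus the count differed between tissues while the strongest restricted peaks were alike. A pair of pSHF-restricted peaks, of 4.93 and 5.37, lay at the lower-coordinate end of the annotated gene body, between 13125243 and 13125732. The RefSeq window of Sema3a lies further inside that body, and no peak of either list covered it.

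The shared peaks of Sema3a went both ways. Of its 7 pairs, 4 were stronger in pSHF, each by less than 1.5-fold, such as the site inside the gene at chr5:13433424-13433591 with 4.85 in pSHF and 3.29 in atria. The strongest shared peak by pSHF, at chr5:13629068-13629376, had 7.42 in pSHF and 5.49 in atria, and the strongest by atria, at chr5:13399152-13399695, had 6.53 in pSHF and 10.3 in atria. The edge of the 100 kb rule fell close to Sema3a: an HT-restricted peak of 16.4, stronger than every atrial peak of the family inside the limit, lay 102318 bp from the gene at chr5:13022344-13022680. It is left out of the counts, as were 21 pSHF and 26 atrial peaks beyond the limit in all. The last peaks inside it were an HT-restricted peak 91112 bp from Nrp1, of 4.90, and a pSHF-restricted peak 99025 bp from Plxnc1, of 5.99. The first pSHF peak outside it was a shared one of 3.77, 106675 bp from Nrp1.

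Sema3e, the ligand of Plxnd1 in vessel patterning, had 5 restricted peaks in pSHF and 1 in atria. The pSHF-restricted peaks were weak, between 3.77 and 4.80, and 4 of them lay inside the gene. Its gene-end peak was nearly equal, with 6.81 in pSHF and 7.11 in atria.

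Sema3c and Sema3d had near-equal numbers. Sema3c had 3 restricted peaks in each list, and its strongest pSHF-restricted peak was also the strongest of class 3, with 7.49 at a pileup of 17, 18415 bp before the gene at chr5:17556174-17556484. In atria its strongest restricted peak was inside the gene, at chr5:17584311-17584767, with 6.58. Sema3d had 4 pSHF-restricted and 3 HT-restricted peaks, all of fold enrichment 4.93 or less. All 3 of its shared pairs were stronger in atria, among them an intragenic one at chr5:12507518-12507945 with 6.999 in pSHF and 11.7 in atria.

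The compact class 3 genes had few peaks. Sema3f, which binds Nrp2, had 2 pSHF-restricted peaks of 3.37 and 2.88 and none in atria. Sema3g, a vascular ligand, had none in pSHF and 2 HT-restricted peaks of 3.45 and 3.89. Sema3b had 1 HT-restricted peak of 5.05 and no other.

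**Figure D2:**
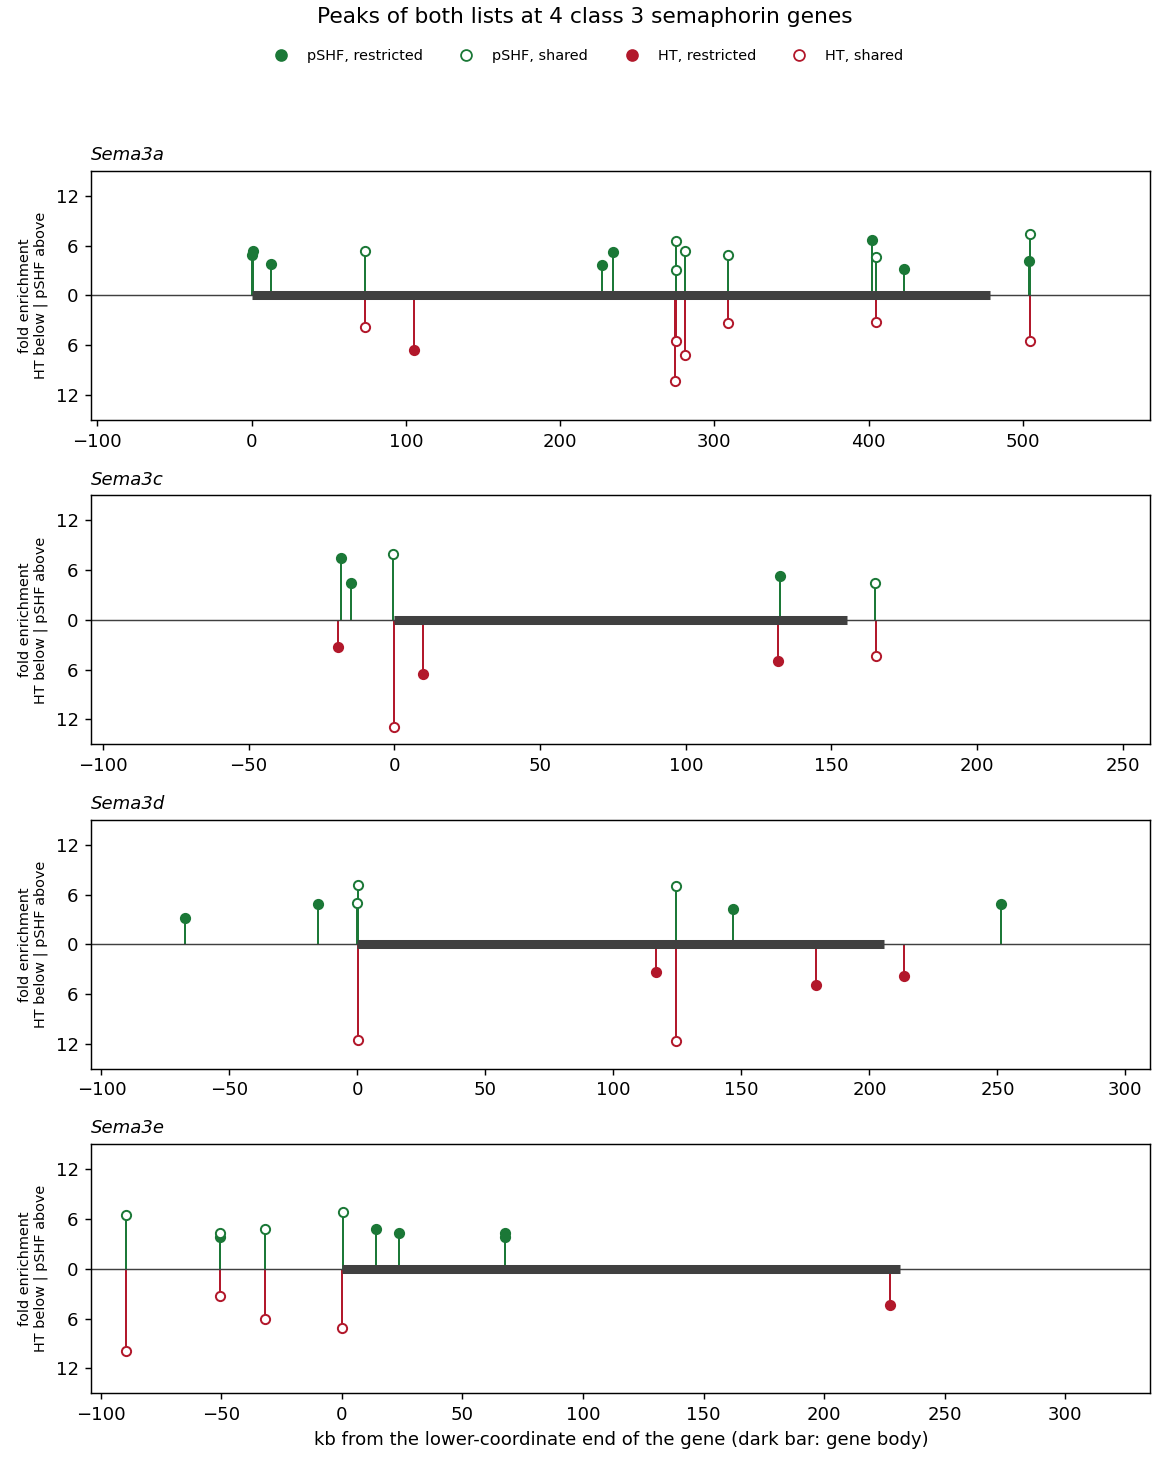
Peaks of both lists along the class 3 genes on chromosome 5, drawn as fold enrichment (y axis) against distance from the lower-coordinate end of the gene body in kb (x axis), with pSHF above atria, restricted peaks as filled and shared peaks as open circles, and the gene body as a dark bar. At Sema3a the pSHF-restricted peaks are spread along the gene, and at Sema3c the peak of 7.49 stands ahead of the gene.

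The membrane-bound class 4 ligands had more restricted peaks in atria. Their 6 genes had 5 restricted peaks in pSHF and 15 in atria, so 25% (8.66 to 49.1) of the restricted peaks were in pSHF, an interval that holds the 39.3% over all genes. The HT-restricted peaks were at Sema4b, Sema4d and Sema4f, with 5, 6 and 4. Sema4a and Sema4g had shared peaks only, and Sema4c had 1 pSHF-restricted peak of 2.81.

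Sema4d, also known as CD100 and the ligand of Plxnb1, had 1 pSHF-restricted peak of 3.18 and 6 HT-restricted peaks. The strongest HT-restricted one lay inside the gene at chr13:51716923-51717208, with 7.49 at a pileup of 15. Of its 2 shared gene-end peaks, one had 5.25 in pSHF and 7.06 in atria and the other 4.04 in pSHF and 3.999 in atria. Sema4b, found at synapses, had 1 pSHF-restricted peak of 4.97 inside the gene, against 5 HT-restricted peaks of 3.99 to 6.03 that all lay outside it or at its end. Sema4f had 2 pSHF-restricted peaks of 3.77 each and 4 HT-restricted peaks of up to 7.02, all outside the gene. The share of these peaks in pSHF was 33.3% (4.33 to 77.7), an interval that holds the share over all genes. A lean of its distal sites to atria was therefore not shown, and its promoter was stronger in pSHF.

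Class 5, whose members carry thrombospondin repeats, was split between its 2 genes. Sema5a had 4 pSHF-restricted and 5 HT-restricted peaks, and Sema5b had 3 in pSHF and none in atria. The strongest were an HT-restricted peak of 6.58 inside Sema5a at chr15:32437757-32437910 and a pSHF-restricted peak of 5.30 inside Sema5b at chr16:35603954-35604086. Both shared pairs of Sema5b, at its gene end, were stronger in pSHF by less than 1.5-fold, the stronger with 5.11 in pSHF and 3.93 in atria.

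Class 6, which binds class A plexins directly, held the largest HT-restricted count of the family. Sema6d, a ligand of Plxna1 in the growth of the chick heart tube, had 7 restricted peaks in pSHF and 13 in atria, over the longest gene body of the family, chr2:124089943-124667789. Its strongest HT-restricted peak had 8.82 at a pileup of 17, at chr2:124485282-124485643, and a further one had 7.67 at chr2:124507934-124508116. The strongest pSHF-restricted peak, of 6.53 at chr2:124506111-124506305, lay in the same stretch of the gene. The share in pSHF, 35% (15.4 to 59.2), was near the 39.3% over all genes. The atrial excess was 6 peaks, and 7 among peaks with a −log10 q of 5 or more. Without Sema6d the class had 6 pSHF-restricted and 5 HT-restricted peaks.

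Sema6a, a ligand of Plxna2 and Plxna4, had 4 restricted peaks in each list. The pSHF-restricted ones had 3.33 to 4.91, and the HT-restricted ones 4.01 to 7.65, the strongest at a pileup of 26. Sema6c had 1 restricted peak in each list, and its promoter peak had 7.93 in pSHF and 14.5 in atria. Sema6b had 1 pSHF-restricted peak of 3.51. The single class 7 gene, Sema7a, had 1 restricted peak in each list.

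**Figure D3:**
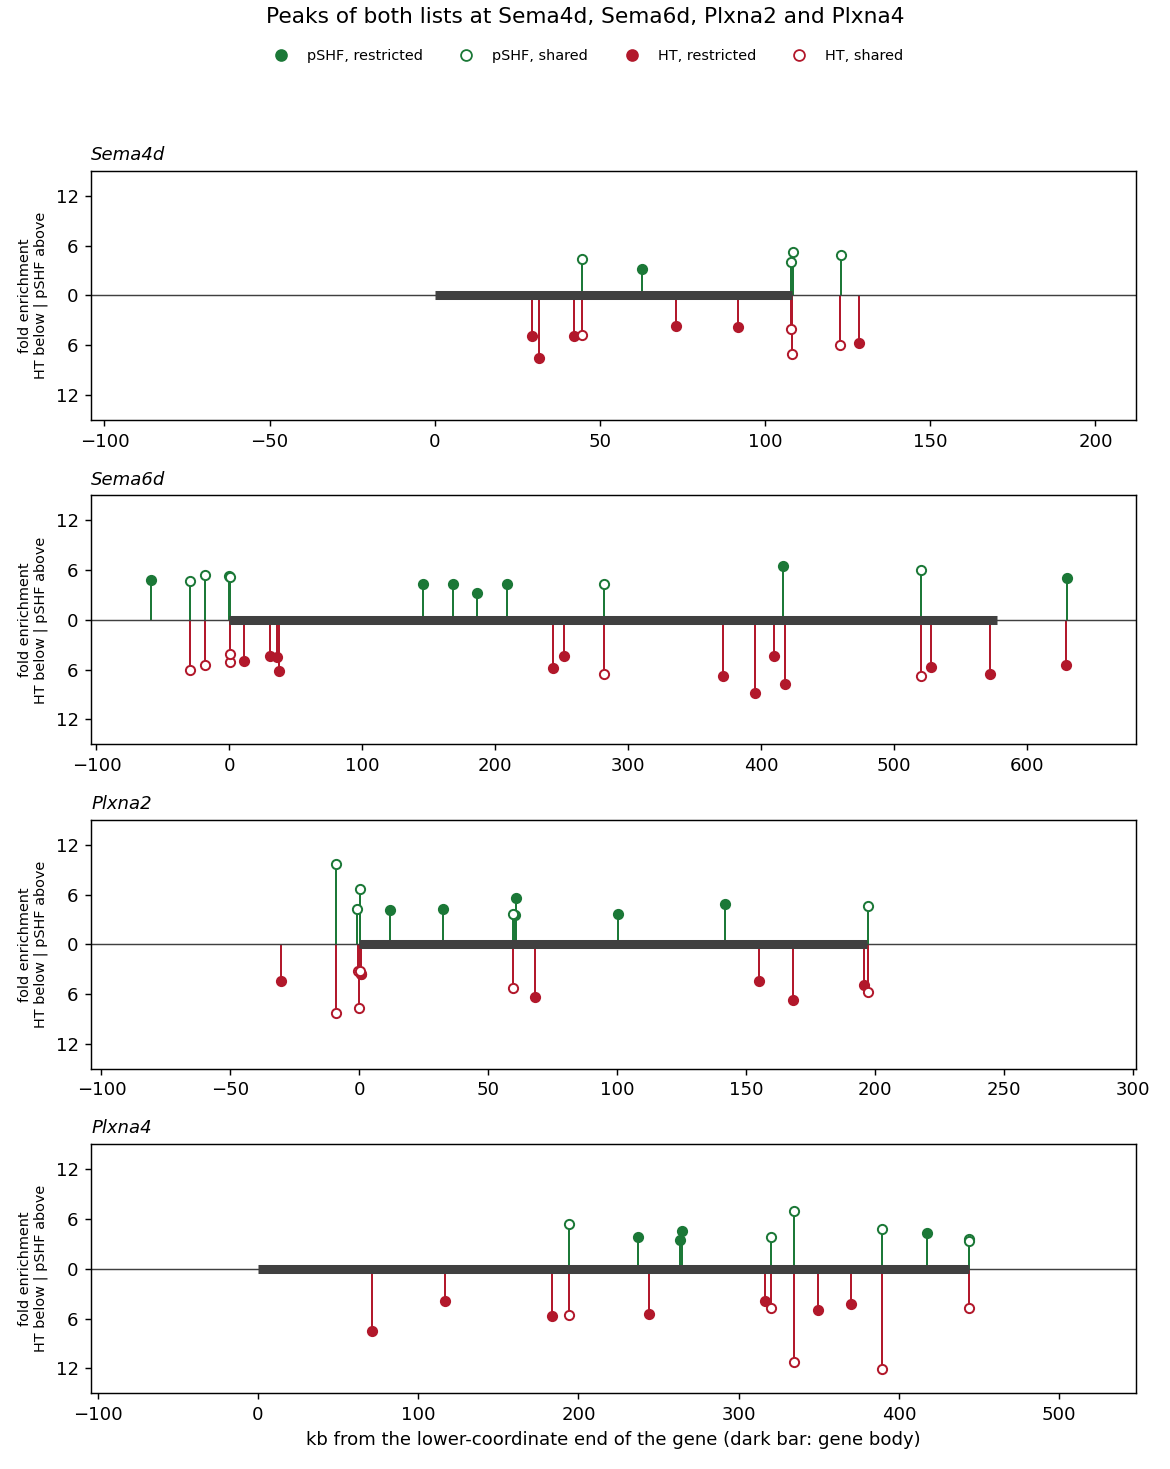
Peaks of both lists along Sema4d, Sema6d, Plxna2 and Plxna4, drawn as fold enrichment (y axis) against distance from the lower-coordinate end of the gene body in kb (x axis), with pSHF above atria, restricted peaks filled, shared peaks open, and the gene body as a dark bar. At Sema6d the HT-restricted peaks reach 8.82 and the pSHF-restricted peaks 6.53.

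Among the receptors, the class A plexins had more restricted peaks in atria. Their 4 genes had 10 restricted peaks in pSHF and 16 in atria, and no class A gene had more in pSHF. The share of restricted peaks in pSHF was 38.5% (20.2 to 59.4), close to the 39.3% over all genes. Plxna3, a receptor of Sema3f, had only a shared promoter peak of 5.11 in pSHF and 8.83 in atria.

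Plxna4, a receptor of Sema3a and Sema6a in sensory axons, had 4 pSHF-restricted and 7 HT-restricted peaks, all inside the gene. Its pSHF-restricted peaks reached 4.55, and the HT-restricted ones reached 7.49 at chr6:32215367-32215757. All 6 shared pairs, which used 5 atrial peaks, had the higher fold enrichment in atria, as did 21580 of all 27546 pairs. Of the 6 pairs, 2 passed 1.5-fold. The largest of these with aligned summits was at chr6:32534000-32534300, with 4.85 at a pileup of 8 in pSHF and 12.02 at a pileup of 34 in atria. The ratio of pileups there was 0.235 (95% interval 0.094 to 0.518).

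Plxna2, a marker of cardiac neural crest in the mouse, had 6 pSHF-restricted and 7 HT-restricted peaks. All 6 in pSHF lay inside the gene, the strongest at chr1:194680314-194680603 with 5.63 at a pileup of 18. In atria the strongest was at chr1:194787803-194787967 with 6.69. Its strongest shared peak lay ahead of the gene at chr1:194610556-194610933, with 9.65 in pSHF and 8.28 in atria. Plxna1, a receptor of class 3 and Sema6d signals, had no pSHF-restricted and 2 HT-restricted peaks, of 3.96 and 4.20.

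Of the other plexins, Plxnc1 was the one with more restricted peaks in pSHF. It had 5 pSHF-restricted and 2 HT-restricted peaks, of which the promoter peak of 4.44 and a distal peak of 5.99 at chr10:95043946-95044180 were the strongest in pSHF. Its strongest shared peak, inside the gene at chr10:94931943-94932310, had 7.32 in pSHF and 11.5 in atria. Plxnb1, the receptor of Sema4d, had 1 restricted peak in each list. Both of its shared pairs were stronger in pSHF by less than 1.5-fold, the larger with 3.82 in pSHF and 2.62 in atria. Plxnb2 had no pSHF-restricted peak and 1 HT-restricted peak of 4.87. Plxnd1 had 1 of 4.64 in pSHF and 1 of 3.70 in atria.

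The neuropilins had opposite counts. Nrp2, the neuropilin that binds Sema3f and VEGF-C, had 12 pSHF-restricted and 4 HT-restricted peaks. Nrp1 had 2 pSHF-restricted and 8 HT-restricted peaks. The share of restricted peaks in pSHF was 75% (47.6 to 92.7) at Nrp2 and 20% (2.52 to 55.6) at Nrp1. Over all genes it was 39.3%, a value below the Nrp2 interval and inside the Nrp1 interval. An excess of 4 or more pSHF-restricted peaks, which Nrp2, Sema3a and Sema3e had, was found at 0.777% of all genes, and an excess of 4 or more in atria, which Nrp1, Sema4b, Sema4d and Sema6d had, at 3.3%. Both shares count all 21627 genes, of which 10949 had any restricted peak, and were not matched for gene size. Sema3e and Sema4b stood exactly at the limit of 4.

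The pSHF-restricted peaks of Nrp2 were many but mostly weak. The strongest, of 8.08 at a pileup of 14, lay 20748 bp before the gene at chr1:62682411-62682730, and was the strongest pSHF-restricted peak of the family. The other 11 had 3.23 to 5.33, and 6 of them lay inside the gene. The 4 HT-restricted peaks were fewer and stronger: the one inside the gene at chr1:62800381-62800714 had 10.2 at a pileup of 26, the strongest HT-restricted peak of the family. Others in atria had 7.48, 6.12 and 4.27. With a −log10 q of 5 or more, Nrp2 had 2 restricted peaks in pSHF and 3 in atria, so its excess in pSHF rests on the weaker peaks. That limit moved all genes toward atria as well. Over all genes it left 1986 pSHF-restricted and 8073 HT-restricted peaks, from 12836 and 19843 in the full lists.

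The promoter of Nrp2 was alike in both tissues, with 4.89 in pSHF and 4.79 in atria. A shared peak 42236 bp beyond the gene, at chr1:62860766-62861191, had 6.79 at a pileup of 13 in pSHF and 4.39 at a pileup of 7 in atria, and the pileup ratio of 1.86 had an interval of 0.689 to 5.50. It was one of 2 family pairs at least 1.5-fold stronger in pSHF. Just before it, at chr1:62859978-62860173, stood an HT-restricted peak of 7.48.

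At Nrp1 the pSHF-restricted peaks were weak, with 4.31 ahead of the gene and 3.77 inside it. Its HT-restricted peaks had 2.89 to 5.92, and 3 of them, of 4.39, 4.84 and 5.58, lay beyond the end of the gene between 128519491 and 128551657 on chromosome 8. The lower-coordinate side held 2 more distal ones, of 4.90 and 5.92. The one intragenic shared peak went the other way, at chr8:128491733-128492042, with 6.90 in pSHF and 5.02 in atria. Among peaks with a −log10 q of 5 or more the atrial excess of Nrp1 was 2.

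**Figure D4:**
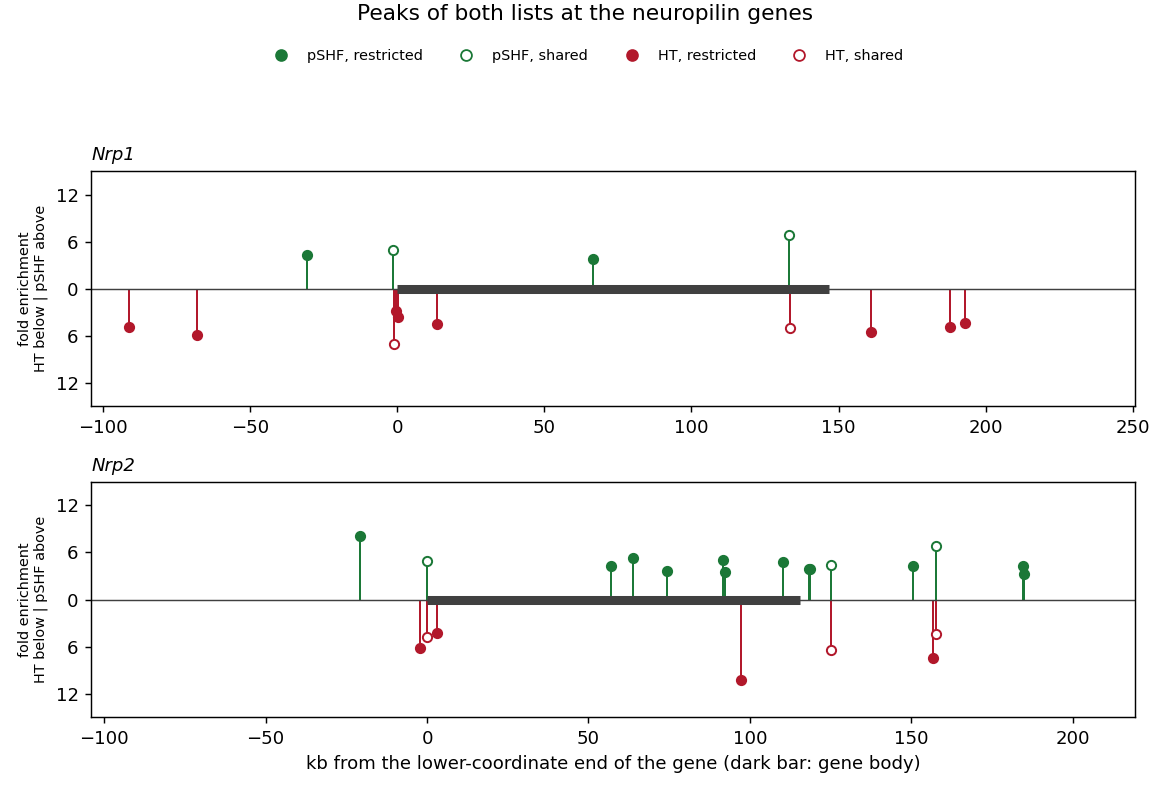
Peaks of both lists along Nrp1 and Nrp2, drawn as fold enrichment (y axis) against distance from the lower-coordinate end of the gene body in kb (x axis), with pSHF above atria, restricted peaks as filled and shared peaks as open circles, and the gene body as a dark bar. The 12 pSHF-restricted peaks of Nrp2 run along and beyond the gene, and the tallest restricted mark in atria is its peak of 10.2.

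Where both lists had a peak, the median ratio of the family was near that of all genes. Over 90 pairs the median log2 ratio of fold enrichment, pSHF over atria, was -0.21 (quartiles -0.54 and 0.19), and over all 27546 pairs it was -0.32. Only the pairs of Sema4f and Nrp2 were at least 1.5-fold stronger in pSHF, 2.22% of the family's pairs and 1.97% of all pairs. At least 1.5-fold stronger in atria were 20 pairs, 22.2%, against 26.8% of all. The exact interval of the pileup ratio left out 1 at 10 of the 90 pairs. These pairs used 84 distinct atrial peaks, and the same count was not made over all pairs, so it has no background here.

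Among the 5 pairs with the largest atrial lead, 4 had summits over 200 bp apart, and in 3 of these, at Sema6c, Sema5a and Sema3d, a further pSHF peak lay under the same atrial peak. They were at the promoter of Sema6c, with 3.93 in pSHF and 14.5 in atria at summits 351 bp apart, and beyond Sema5a, with 4.35 in pSHF and 13.6 in atria at 422 bp. The others were at Sema3d, with 5.02 in pSHF and 11.5 in atria at 298 bp, and inside Sema4b, with 3.21 in pSHF and 6.37 in atria at 205 bp. The fifth, inside Plxna4, had summits 71 bp apart. By class the median log2 ratio was -0.32 for class 3, -0.04 for class 4, -0.29 for class 6, -0.36 for plexin A and 0.03 for the neuropilins. Over all pairs it was -0.32, so the shared peaks of class 3 stood at the value of all genes while its restricted peaks were more often in pSHF.

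**Figure D5:**
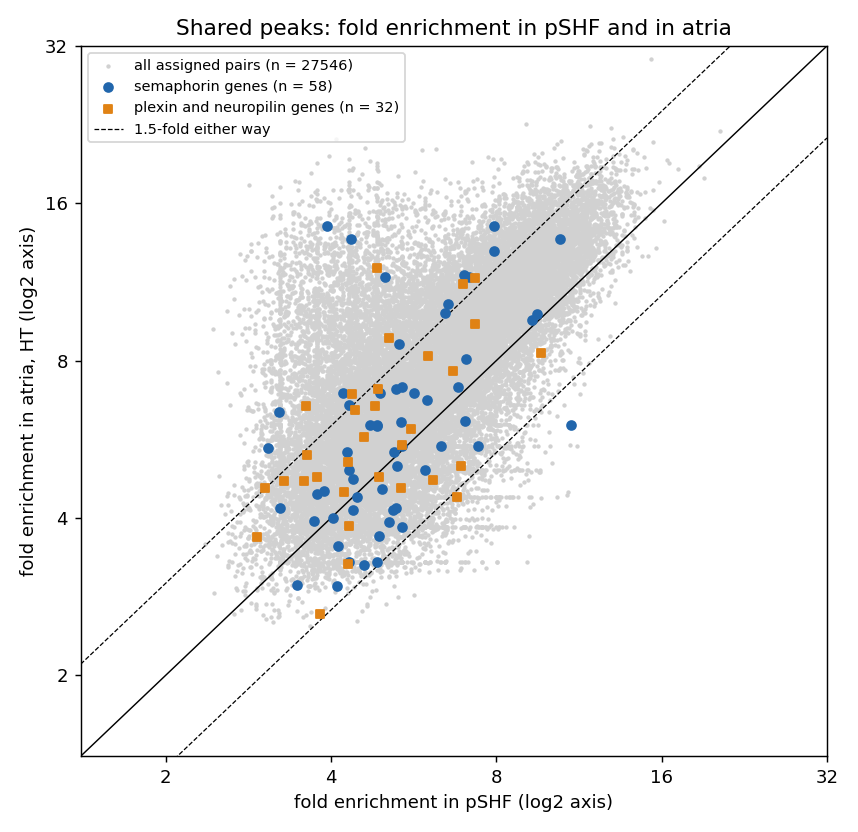
Fold enrichment of shared peaks in pSHF (x axis) and atria (y axis), both on log2 axes, with the 90 family pairs (semaphorins as circles, receptors as squares) over all pairs at protein-coding genes in grey, a line of equality and dashed lines at 1.5-fold. On the atrial side lie 60 of the 90 family pairs, as do 21580 of all 27546 pairs. Of the family pairs, the Sema4f promoter, with 10.9 in pSHF and 6.03 in atria, lies furthest to the pSHF side.

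A list of 36 partner genes covered co-receptors, further receptors and signal transducers of the family. It had 56 pSHF-restricted and 100 HT-restricted peaks, so 35.9% (28.4 to 44.0) were in pSHF, near the 39.3% over all genes. Of its pSHF peaks 43.1% (34.4 to 52.0) were restricted, above the 31.8% over all genes. Of its atrial peaks 57.8% (50.1 to 65.3) were restricted, above the 43.7% over all genes. By gene, 5 had more in pSHF, 18 more in atria and 13 equal numbers. Over all 21627 genes, 15% had more in pSHF and 29.3% more in atria. Kdr, a VEGF receptor that works with Nrp1, had 3 in pSHF and 10 in atria, and Mical3, of the redox enzymes that act on actin behind plexins, had 7 in pSHF and 15 in atria. Chl1, an adhesion partner of Nrp1, had none in pSHF and 6 in atria, and Itga1, a subunit of the Sema7a-binding integrin, had 2 in pSHF and 8 in atria. Those with more in pSHF were Vegfa, Flt1, Nrcam, Mical2 and Farp1, each by 2 peaks, for instance Vegfa with 4 in pSHF and 2 in atria. This list was put together with earlier results of these data known.

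Markers of the tissues were counted in the same way, against 39.3% of restricted peaks in pSHF over all genes. Markers of the second heart field had 20 pSHF-restricted and 9 HT-restricted peaks, and atrial muscle markers 4 in pSHF and 31 in atria, with Nppa and Myh6 without a pSHF peak. Endothelial markers had 22 pSHF-restricted and 44 HT-restricted peaks, or 33.3% (22.2 to 46.0) in pSHF, and erythroid markers none in pSHF and 11 in atria. Foregut endoderm markers had 19 in pSHF and 10 in atria, and neural crest markers 7 in pSHF and 9 in atria, or 43.8% in pSHF. Markers of neural tube and neurons had 3 in pSHF and 8 in atria, and epicardial markers 9 in pSHF and 11 in atria, or 45% in pSHF. The pooled endothelial, neural crest and epicardial shares were near that of all genes, but genes within these lists differed. Of 9 endothelial genes, 7 had more in atria, 1 had more in pSHF and 1 had equal numbers. Among all genes with a restricted peak, 57.9% had more in atria and 29.5% had more in pSHF. Ets1 held 6 of the 7 pSHF-restricted and 7 of the 9 HT-restricted neural crest peaks. Among epicardial genes, Tbx18 had 6 in pSHF and 2 in atria, and Wt1 and Tcf21 each had 1 in pSHF and 4 in atria. Semaphorins and their receptors are active in endothelium, neural crest and neurons, and the part of those cells in the counts above was not tested.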

How the data were processed

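ATAC-seq of pSHF and atria (3 samples each) was deposited as 1 peak list per tissue, analysed here on mm10. Bowtie2 2.3.2, MACS2 2.1.1, Picard and SAMtools 1.5 are named, per the submitters' processing notes; roles, parameters and any pooling before calling were not given in the sources used here. Values per peak in the deposited lists are a score, the fold enrichment as a ratio, and the −log10 p and −log10 q values of the authors' caller. The pSHF list had 58887 lines and 44018 peaks and the atrial list 60223 lines and 49267 peaks, once lines with the same interval were merged and the summit of highest fold enrichment kept.

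Peaks were assigned by summit to the nearest protein-coding gene body within 100 kb (RefSeq table, GRCm38.p6, 21627 genes), and called shared at an overlap of at least 1 bp. A gene-end peak has its summit within 1 kb of an end of its gene. Pileups were recovered from the deposited fold and −log10 p as whole numbers for 100% of peaks, within 0.001 on the log10 scale. Each pSHF peak was paired with the atrial peak of largest overlap. Shares and pileup ratios have 95% exact (Clopper-Pearson) intervals. Python 3.11.15, numpy 2.4.6, pandas 2.3.3, scipy 1.17.1 and matplotlib 3.10.9 were used, and the scripts were tested on simulated data. No test between tissues was made, as there is no value per sample.

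Every member has its counts. Those described in detail have 3 or more restricted peaks in a list, a difference of 2 or more, or a known role in heart or vessel development. The members and the gene lists were chosen with earlier results of these data known. Protein sequences were not used here. Promoter windows were printed by the peak over the window. The planned rule, by any peak pair at the gene end, would have printed Sema5a (4.20 in pSHF and 6.94 in atria) in place of Nrp1; this departure was made after the values were seen.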

Additional observations from a re-analysis of the deposited data

How the results depend on the processing

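No paired analysis was possible because each tissue has 1 list with no value per sample, and for the same reason no replicate could be left out. Under 50% reciprocal overlap, 63.3% of pSHF and 63.1% of atrial peaks of the family were restricted. The shares over all genes were not computed under that rule, so these 2 have no background here. At a −log10 q of at least 5, 10 pSHF peaks (16.7%) and 33 atrial peaks (37.1%) were restricted, where 10.2% and 28.9% were over all genes in pSHF and atria. At or above the list's median fold enrichment these were 21 pSHF (28.8%) and 26 atrial peaks (39.4%), against 16.2% and 25.1% over all genes, and the shared-pair median log2 ratio was -0.39. With gene-end peaks left out, 54.6% of pSHF peaks were restricted. Among the named genes and classes, the difference in restricted peaks, pSHF minus atria, turned round at a −log10 q of at least 5 for Nrp2 (8 in the full lists, -1), the neuropilins (2, -3) and class 5 (2, -2), and at the median fold enrichment for the neuropilins (-2). There it was 0 for Nrp2. For class 3 it was 11 in the full lists, 0 at the q limit and 6 at the median fold enrichment, and for Sema3a 7, 1 and 3. All genes also moved toward atria at the q limit, with 1986 pSHF-restricted and 8073 HT-restricted peaks. In the full lists they had 12836 and 19843, and at the median fold enrichment 3500 and 5811. Sema5a had -1, and 2 under reciprocal overlap; Plxna2 had -1, and 1 with gene-end peaks left out. The cause was not tested. The differences of Nrp1 (-7 to -2), Sema4d (-5 to -2), Sema6d (-9 to -4), class 4 (-10 to -3) and plexin A (-8 to -2) kept their sign under every alternative run. So did those of Plxna4 (-3 to -2), Sema4f (-2 to -1) and class 6 (-9 to -4). Toward pSHF, those of Sema3a (1 to 7) and Plxnc1 (1 to 3) also kept their sign. Over all genes the difference in the full lists was -7007, so a negative sign does not set a gene or class apart. Every alternative reuses the same 2 lists, so a kept sign is not separate support. Other limits were 50 kb, 500 kb, the nearest gene end, and the summit of highest −log10 q. Using whole intervals, summits within 100 bp or recovered pileups was chosen after seeing the data; with pileups the shared-pair median was -0.12 (95% order-statistic interval -0.32 to 0.05). At q limits, whether a peak was restricted was still judged on the full lists. Weak peaks, with pileups down to 5, limit every count.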
